A study of Mus musculus with 6 samples.

Results

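Leukocytes of the spinal cord were compared between day 6 and day 10 after T cell transfer in middle-aged recipients, by single-cell RNA sequencing. The cells were all those of the middle-aged day 6 library (10026 cells) and the middle-aged day 10 library (9873 cells), 19899 of the 38057 cells sequenced. They were read in the clusters that were deposited with the cells, and a cluster was taken where each day held at least 50 of its cells. This left 12 of 16 clusters and 19677 cells, 9956 from day 6 and 9721 from day 10. The other clusters, numbered 6, 12, 14 and 15, held fewer than 50 cells on at least 1 day.

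The study used experimental autoimmune encephalomyelitis (EAE), a mouse model of multiple sclerosis, set off by the transfer of CD4+ T cells reactive to myelin oligodendrocyte glycoprotein. Donor mice were 8 to 12 weeks old, and their T cells were polarized in culture with IL-23 and IL-1α in the presence of an antibody against IFN-γ. All recipients were naive C57BL/6 mice that received such cells, either 40 to 44 weeks old (middle-aged) or 8 to 12 weeks old (young). For each age and day, CD45+ cells of 4 spinal cords were pooled into 1 library, separated from myelin on Percoll and sorted. There is thus 1 library per day, the animals in it cannot be told apart, and day, pool and handling of the library cannot be told apart either. Donor T cells were also not separated from those of the host.

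In EAE, myelin-reactive T cells enter the spinal cord and release cytokines that bring in neutrophils and monocytes. Monocytes mature into macrophages within the lesion, while the resident microglia lose part of their resting program and take up lipid and present antigen. Type I interferons act on nearly every cell type. Their receptor activates a complex that holds STAT2 and IRF9, and this complex attaches to a short promoter element that drives the interferon-stimulated genes.

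The middle-aged libraries held 60500366 (day 6) and 66238489 (day 10) unique molecular identifiers (UMIs, counted molecules), with medians of 4704.5 and 5360 UMIs per cell. The median percentage of ribosomal protein UMIs was 9.53 on day 6 and 20.0 on day 10, and that of mitochondrial UMIs was 1.55 and 2.72. The libraries shared 30 cell barcodes, 0.299% of those of day 6, and 7 of these pairs lay in the same cluster. Clusters 0 and 3 were neutrophil-like, 1 and 5 monocyte/macrophage-like, 2 T cell-like, 4 B cell-like, 7 dendritic cell-like, 9 NK cell-like and 10 microglia-like by their marker genes. For cluster 0 none of the 10 neutrophil markers was among its 10 leading genes. Cluster 8 had microglia markers as its highest list, but none was among its 10 leading genes and its cells were shallow. Their median was 2629 UMIs on day 6 and 2517.5 on day 10 in the middle-aged libraries, where cluster 0 had 2193 and 2331. In the young day 6 library it was 2059 UMIs, against 6196 for all its cells. By markers alone cluster 8 would be microglia-like. It was left unnamed by choice, although cluster 0 was named with shallow cells and no marker among its leading genes. Clusters 11 and 13 were also left unnamed. The leading genes of cluster 11 came from several cell types. In cluster 13 T cell markers were highest (median log2 ratio to other cells 1.38), closely followed by neutrophil markers (1.32).

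Cluster shares moved away from neutrophils and toward T cells between the days. Neutrophil-like clusters 0, 3 and 6 together made up 41.7% of day 6 cells (95% Clopper-Pearson interval 40.7 to 42.7) and 24.5% of day 10 cells (23.6 to 25.3), a ratio of 0.586. The T cell-like cluster 2 held 11.3% of cells on day 6 (10.7 to 11.98) and 24.9% on day 10 (24.1 to 25.8), 2.20 times the share (interval 2.05 to 2.36). All intervals here and below cover counting error only, and no test between days was possible with 1 library per day.

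Of the myeloid clusters, the monocyte/macrophage-like clusters 1 and 5 together were 33.9% of cells on day 6 and 27.1% on day 10. Cluster 5, in which monocyte genes such as Vcan and F13a1 were among the leading genes, had 0.545 times its day 6 share (interval 0.477 to 0.622), and cluster 1 had 0.859 times (0.813 to 0.909). The microglia-like cluster 10 was 2.15% of cells on day 6 and 3.38% on day 10 (ratio 1.57, 1.32 to 1.87). Cluster 8 was 3.63% and 7.86% (ratio 2.16). The dendritic cell-like cluster 7 was 2.88% and 3.23%, and the interval of its ratio, 0.953 to 1.32, included no change.

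Among the lymphoid and unnamed clusters, B cell-like cells of cluster 4 were 1.84% of day 6 cells and 3.42% of day 10 cells (ratio 1.87, 1.55 to 2.24). NK cell-like cells of cluster 9 were 0.958% and 1.83% (ratio 1.91). Cluster 11 was 0.708% and 2.06% (ratio 2.90), and cluster 13 was 0.598% and 0.972% (ratio 1.62). Shares of a whole library add up to the same total, so that a lower neutrophil share goes with higher shares elsewhere. Among cells outside the neutrophil-like clusters, the log2 ratio of the T cell-like share was 0.76 against 1.14 over all cells, and that of the microglia-like share was 0.28 against 0.65.

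**Figure D1:**
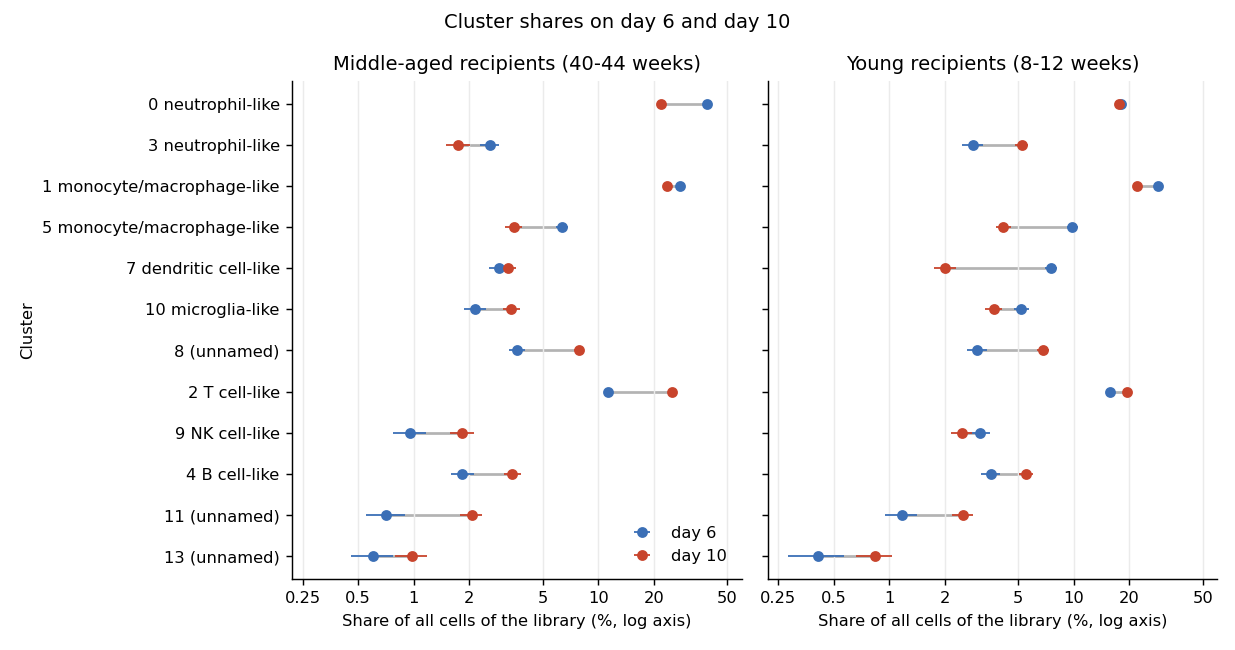
Share of each cluster among all cells of a library (percent, log axis) in middle-aged (left) and young (right) recipients. Blue points are day 6 and red points day 10, bars are 95% Clopper-Pearson intervals for counting error, and each point is 1 library of 4 pooled spinal cords. In middle-aged recipients the neutrophil-like cluster 0 was 38.7% on day 6 and 21.9% on day 10, while the T cell-like cluster 2 was 11.3% and 24.9%.

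The same interval in the young libraries gave other ratios for several clusters. The share of the neutrophil-like clusters 0, 3 and 6 together was 21.5% on day 6 and 28.0% on day 10 in young recipients (ratio 1.31), opposite in direction to the 0.586 of the middle-aged. The single clusters differed. In young recipients the ratio was 0.981 for cluster 0 (0.915 to 1.05), 1.85 for cluster 3 and 7.25 for cluster 6. Cluster 6, with 43 cells on day 6, had a higher share on day 10 in middle-aged recipients too (0.429% and 0.841%). The microglia-like share had a ratio of 0.708 in young and 1.57 in middle-aged recipients, and the NK cell-like share 0.793 and 1.91. The dendritic cell-like share had a ratio of 0.267 in young recipients (0.227 to 0.314). On the log2 scale the middle-aged ratio of that cluster exceeded the young by 2.07 (Wald interval 1.75 to 2.39). Shares of cluster 8 had nearly the same ratio at both ages, 2.16 and 2.27, and the log2 ratios differed by -0.07 (-0.34 to 0.20).

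The deposited clusters were built from the expression of all 4 libraries after batch integration, and genes that differed between days could move cells across cluster borders. Of the 10 leading genes of a cluster, 6 of 10 in cluster 0 and 6 of 8 compared in cluster 3 were at least 2-fold apart between the days, 5 in each of clusters 1, 4 and 5, 3 in cluster 2 and in cluster 11, 2 in cluster 10, 1 in cluster 8 and 0 in clusters 7, 9 and 13. Over all genes compared, 36.1% were at least 2-fold higher and 5.17% lower in cluster 0, and 10.2% and 13.9% in cluster 3. The pair was 12% and 6.03% in cluster 1, 1.42% and 0.784% in 4, and 7.81% and 5.71% in 5. For cluster 2 it was 2.28% and 2.69%, for 11 1.32% and 3.16%, and for 10 1.31% and 4.44%. For cluster 8 it was 3.14% and 11.2%, for 7 2.09% and 4.54%, for 9 0.967% and 2.07%, and for 13 3.48% and 6.63%. The counts are not compared between clusters. Shares of single clusters are given as deposited, and how far genes that differed between days moved cells between clusters was not tested.

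Within clusters, a gene's level is given as CPM, its UMIs per 1000000 UMIs summed over the cells of that cluster and library. Genes with at least 100 UMIs in both libraries together were compared, by the log2 ratio of day 10 over day 6 with an exact conditional binomial interval. A gene counts as past the fold at 2-fold or more.

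Type I interferon-stimulated genes had a lower median on day 10 than on day 6 in all 12 clusters. These genes encode antiviral proteins, such as the ubiquitin-like ISG15, the RNA-binding IFIT proteins and viperin, the product of Rsad2. In the monocyte/macrophage-like cluster 1, all 19 compared members of a list of 20 were at least 2-fold lower, against 6.03% of all 9815 genes compared, and their median log2 ratio was -3.25 against 0.23 over all genes. Isg15 went from 2263 to 87.3 CPM there, a log2 ratio of -4.70 (-4.76 to -4.63). Rsad2 went from 930 to 50.2 CPM, and Irf7, the transcription factor that amplifies interferon production, from 811 to 87.5 CPM.

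The promoters of 4 of these genes are shown because members of the list were lower together in all clusters. Each line is a stretch of 90 bases upstream of the start site in RefSeq (GRCm38.p6), written 5′ to 3′ on the strand of the gene. Capitals mark matches to GAAA and GAAA spaced by 2 bases of any kind, the core of the interferon-stimulated response element, on either strand, and overlapping matches run together.
Isg15 (chr4:156200841-156200930, minus strand): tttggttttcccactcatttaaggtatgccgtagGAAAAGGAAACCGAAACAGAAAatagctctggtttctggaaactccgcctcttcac
Ifit1 (chr19:34640754-34640843, plus strand): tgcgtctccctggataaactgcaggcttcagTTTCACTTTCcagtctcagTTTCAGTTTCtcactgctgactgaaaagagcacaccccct
Ifit3 (chr19:34583350-34583439, plus strand): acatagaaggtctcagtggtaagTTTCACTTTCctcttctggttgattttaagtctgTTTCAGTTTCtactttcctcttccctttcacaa
Rsad2 (chr12:26456523-26456612, minus strand): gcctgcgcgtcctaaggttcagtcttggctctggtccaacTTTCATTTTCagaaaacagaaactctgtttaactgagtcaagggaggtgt

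These stretches held 3 matches for Isg15, 2 each for Ifit1 and Ifit3, and 1 for Rsad2. Of the 20 genes of the list, 15 had a promoter of 300 bases in the RefSeq table, and 8 of these (53.3%) held at least 1 match. Of all 27025 genes with a promoter in that RefSeq set, 1079 (3.99%) held one, and of its 32851 single promoters 1131 (3.44%) did. A list of 15 GTPases induced by interferon-γ, which attack the vacuoles of intracellular pathogens, had a match in 9 of the 10 genes with a promoter found. The shorter STAT element TTCNNNGAA was in 6 of those 10, in 4 of the 15 and in 9.55% of all genes with a promoter. A match is a description of letters and was not tied to binding here.

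The neutrophil-like clusters showed the same direction from higher day 6 levels. Isg15 went from 5358 to 489 CPM in cluster 0 and from 2809 to 97.3 CPM in cluster 3. In cluster 0, 17 of 18 compared members were at least 2-fold lower (5.17% of all genes), with a list median of -2.52 where the median of all genes was 0.68. In cluster 3 all 15 compared members were at least 2-fold lower (13.9% of all genes), with a median of -3.46. Ifit2 was at 132 UMIs on day 6 and 1 UMI on day 10 in cluster 3, a log2 ratio of -6.86 with an interval from -12.17 to -4.35.

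The other myeloid clusters behaved alike. In cluster 5 all 19 compared members were at least 2-fold lower (5.71% of all genes; median -3.05), as were all 19 in the dendritic cell-like cluster 7 (4.54%; median -2.95) and all 16 in cluster 8 (11.2%; median -3.07). In the microglia-like cluster 10, 15 of 17 were at least 2-fold lower (4.44%), and the median was -1.81. Isg15 went from 796 to 75.4 CPM in cluster 10 and from 1316 to 70.0 CPM in cluster 8.

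The T, NK and B cell-like clusters had lower levels of Isg15 than the myeloid clusters on both days. In the T cell-like cluster all 16 compared members were at least 2-fold lower (2.69% of all genes; median -3.11), and Isg15 went from 645 to 24.6 CPM. In the NK cell-like cluster Isg15 went from 333 to 19.9 CPM, and all 4 compared members were at least 2-fold lower (2.07% of all genes; median -3.03). The B cell-like cluster had the lowest level, with Isg15 at 54 UMIs (86.8 CPM) on day 6 and 11 UMIs (9.34 CPM) on day 10, and 2 of 3 compared members were at least 2-fold lower (0.784% of all genes). In cluster 11, 7 of 8 compared members were at least 2-fold lower (3.16%; median -2.91), and in cluster 13 all 15 (6.63%; median -2.58). Cluster 13, most of whose cells carried T cell transcripts, had higher levels, with Isg15 at 2354 and 166 CPM.

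**Figure D2:**
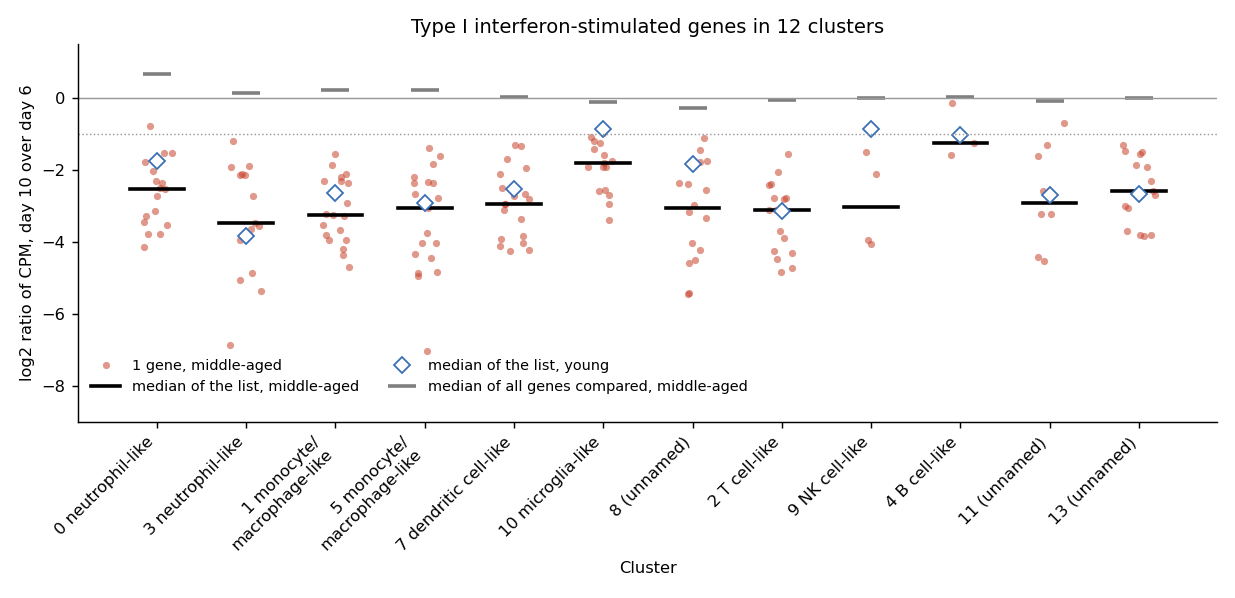
Log2 ratio of CPM, day 10 over day 6, for each compared member of the list of type I interferon-stimulated genes in 12 clusters of middle-aged recipients (red points). Black bars are list medians, grey bars the medians of all genes compared, diamonds the list medians in young recipients, and the dotted line marks 2-fold. All list medians lie below the median of all genes, from -3.46 in cluster 3 to -1.24 in cluster 4.

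The list medians were also negative in young recipients, from -3.84 in cluster 3 to -0.87 in cluster 10. The microglia-like cluster had a median of -1.81 in middle-aged and -0.87 in young recipients, and Isg15 itself had log2 ratios of -3.40 and -1.49 there. That difference was -1.91 (Wald interval -2.14 to -1.68). On day 6 Isg15 was at 796 CPM in middle-aged and 591 CPM in young microglia-like cells, and on day 10 at 75.4 and 210 CPM. In the T cell-like cluster the medians were -3.11 and -3.13.

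Genes of the pathway that leads to this response were then read in the same clusters, a choice made after values were seen. Irf7 was lower in all 10 clusters where it was compared (median log2 ratio -2.60). It is a member of the list above, so its ratios repeat that result. Stat2, a subunit of the complex that binds the response element, was lower in 8 of 8 (median -1.68), and Irf9, its DNA-binding subunit, in 10 of 10 (median -0.97). Socs1, which inhibits signalling from the receptor, was lower in 11 of 11 (median -1.19). Irf1, a transcription factor gene induced by interferons, was lower in 10 of 12 (median -0.82) and higher in the B cell-like cluster, with a log2 ratio of 0.44 (0.06 to 0.83). Here lower means that the counting interval lay below 0. Whether Stat2, Irf9 and Socs1 moved apart from the interferon-stimulated genes was not tested.

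The receptor chains did not move with the targets. Ifnar1 was lower in 0 and higher in 2 of 8 clusters, with log2 ratios between -0.07 and 0.53, and Ifnar2 was lower in 2 and higher in 1 of 10. Ifnb1, which encodes interferon-β, reached 100 UMIs in 0 of the 12 clusters and was not compared.

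Interferon-γ-induced GTPases were mostly lower by at least 2-fold in myeloid and T cell-like clusters. In cluster 1, 14 of 15 were at least 2-fold lower (6.03% of all genes; median -1.99), and Gbp2 went from 1715 to 397 CPM. In the dendritic cell-like cluster all 15 were at least 2-fold lower (4.54%; median -1.58), in the microglia-like cluster 10 of 14 (4.44%; median -1.35), in cluster 8 11 of 12 (11.2%; median -1.77), and in the T cell-like cluster 11 of 15 (2.69%; median -1.33). In cluster 5 13 of 15 were at least 2-fold lower (5.71%; median -1.32), and the median was -0.49 without cells marked by another lineage. B cell-like cells did not share this. There 5 GTPase genes could be compared, their median was 0.70, and 1 of them, Gbp7, was at least 2-fold higher (49.8 and 105 CPM), where 1.42% of all genes were.

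Macrophage and tissue-remodelling genes had a higher median on day 10 in monocyte/macrophage-like cells of cluster 1. Of 23 genes of the list 22 were compared, and 12 were at least 2-fold higher, where 12% of all genes were, while 0 were lower by that much. Their median was 1.04, and that of all genes 0.23. Trem2, a lipid receptor of macrophages and microglia, went from 74.3 to 472 CPM. The lysosomal protease gene Ctsd went from 682 to 2988 CPM, and the fatty acid-binding protein gene Fabp5 from 226 to 1045 CPM. C1qa, a subunit of the complement initiator C1q, went from 397 to 1564 CPM. The matrix metalloprotease gene Mmp12 went from 36.1 to 88.4 CPM, while young recipients had 3.05 and 120 CPM.

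Apoe, a member of the list and the apolipoprotein that macrophages load with lipid from debris, went from 2724 to 23486 CPM, 8.62-fold. The genes with the largest ratios upward by the naming rule were Syngr1 (6.44 and 95.3 CPM), Ms4a7 (12.9 and 176), Gpnmb (29.6 and 383), Hebp1 (4.65 and 53.2) and Apoe. Gpnmb encodes a lysosomal glycoprotein of lipid-laden macrophages, and Ms4a7 marks mature macrophages. Cells of cluster 1 with at least 2 UMIs of neutrophil markers were 13.4% on day 6 and 22.6% on day 10, the largest such class. Cells with microglia markers were 4.78% and 16.7%, and cells with T cell transcripts 0.833% and 3.25%. Without all cells marked by another lineage (18.1% and 38.5%) the log2 ratio of Apoe was 2.87 in place of 3.11, and that of Gpnmb 3.45 in place of 3.69.

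Monocyte genes moved in both directions in the same cells. Plac8 went from 5857 to 885 CPM, Ms4a4c from 1466 to 222, and Ly6c2, the gene of the classical monocyte antigen, from 2275 to 891. Of 14 monocyte genes 6 were at least 2-fold lower, where 6.03% of all genes were, and 3 were higher by that much, where 12% were. Their median was -0.45, and -0.27 without cells marked by another lineage. One of the latter was the lysozyme gene Lyz2, at 7681 and 18336 CPM, which macrophages also express.

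Cytokine and chemokine transcripts of cluster 1 were mostly lower on day 10. Of 19 chemokine genes compared 11 were at least 2-fold lower, and 2 were higher by that much (median -1.68), where 6.03% of all genes were lower and 12% higher. The monocyte attractant Ccl2 went from 1925 to 376 CPM, and Cxcl10, which attracts activated T cells and is itself induced by interferon, from 2331 to 299. Of 17 myeloid cytokine genes 12 were at least 2-fold lower and 0 higher (median -1.61). Il1b went from 3640 to 1804 CPM, Il1rn, the antagonist of the IL-1 receptor, from 1094 to 208, and Il12a from 53.3 to 4.98.

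Some of these inflammatory genes were lower on day 10 in middle-aged and higher in young recipients. Nos2, which encodes inducible nitric oxide synthase and is 1 of the 10 leading genes of cluster 1, went from 768 to 96.8 CPM in middle-aged and from 140 to 188 CPM in young recipients. The log2 ratios differed by -3.42 (Wald interval -3.51 to -3.33). Inhba, the activin A subunit, went from 813 to 254 CPM in middle-aged and from 238 to 373 CPM in young recipients. For both genes the middle-aged day 6 value was the highest of the 4 libraries. Arg1, also a leading gene of the cluster and the enzyme that competes with nitric oxide synthase for arginine, was at 3586 and 2992 CPM in middle-aged and at 1389 and 2976 CPM in young recipients.

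The strongest ratios downward in cluster 1 were those of Edn1, Isg15, Rsad2, Isg20 and Slfn4. Edn1, the vasoconstrictor endothelin-1, went from 78.5 to 2.37 CPM, with 13.2% of cells holding a UMI on day 6 and 1.37% on day 10. In young recipients Edn1 was at 17.6 and 7.94 CPM. Of 13 genes of MHC class I presentation 6 were at least 2-fold lower in cluster 1 (6.03% of all genes; median -0.84), such as the peptide transporter Tap1 (470 and 199 CPM). MHC class II genes had a median of 0.31, close to the 0.23 of all genes, and H2-Aa was at 1852 and 3062 CPM.

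Cluster 5 shared the lower interferon genes but had more T cell transcripts on day 10. Cells with at least 2 UMIs of T cell receptor and CD3 genes were 16.4% on day 6 and 49.4% on day 10. All 10 T cell markers were at least 2-fold higher, with summed levels of 563 and 1789 CPM, where 7.81% of all genes were. Genes that led the naming rule upward, such as Nrgn (3 and 724 UMIs) and Ccl1 (117 and 2436 UMIs), were leading genes of the T cell-like cluster. Without cells carrying 2 or more UMIs of another lineage the log2 ratio of Nrgn was 1.58 in place of 8.61, that of Ccl1 2.31 in place of 5.07, that of Gpnmb 2.31 in place of 4.61, and that of Nos2 0.45 in place of -1.82. Plac8 went from 5994 to 1472 CPM and C1qa from 85.4 to 660 CPM, and without those cells their log2 ratios were -1.15 in place of -2.03 and 1.53 in place of 2.95. Such cells were 62.1% of the cluster on day 6 and 74.1% on day 10.

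Disease-associated microglia genes, a program of microglia near plaques and lesions, had a higher median on day 10 in the microglia-like cluster 10. Of 20 genes of the list 17 were compared. Of these 8 were at least 2-fold higher, against 1.31% of all genes, and 0 were lower by that much, with a median of 1.00. Ctsd went from 1535 to 6940 CPM, Timp2 from 166 to 551, Fabp5 from 65.1 to 290, and Axl, a receptor for apoptotic cells, from 70.5 to 152. Trem2 went from 494 to 987 CPM. Lpl, lipoprotein lipase, went from 27.3 to 52.9 CPM in middle-aged and from 51.8 to 13.7 CPM in young recipients.

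Apoe, also a member of that list, had the highest ratio among its compared members in cluster 10. It went from 1104 to 16178 CPM, a log2 ratio of 3.87 (3.82 to 3.93). Apoc1, another apolipoprotein gene, was at 2 and 203 UMIs, a ratio of 74.8 with a log2 interval from 4.35 to 9.28, and Apoc2 went from 37.4 to 243 CPM. Saa3, an acute-phase protein gene, went from 131 to 817 CPM (a log2 ratio of 2.64, and 3.46 without cells marked by another lineage), and Gpnmb from 10.9 to 88.1 CPM. The share of cells with at least 2 UMIs of microglia markers was 97.7% on day 6 and 97.9% on day 10. Summed neutrophil markers were at 1402 and 3727 CPM in this cluster. The T cell-like cluster, which should lack Apoe, held 22 and 203 CPM of it.

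Homeostatic genes of the resting state differed little between the days in cluster 10. Of 15 genes 1 was at least 2-fold lower, near the 4.44% of all genes, and the median was -0.06, near the -0.12 of all genes. Tmem119 was at 391 and 354 CPM, P2ry12 at 240 and 208, and Cx3cr1 at 848 and 1014. The gene past the fold was Fcrls, a leading gene of the cluster, at 116 and 23.5 CPM. In young recipients the same list had a median of -0.80, from higher day 6 levels: Cx3cr1 was at 1776 and 1031 CPM and Cst3, the protease inhibitor cystatin C, at 17700 and 4839 CPM against 8632 and 5679 CPM in middle-aged recipients. On day 10 the summed level of the list was 14334 CPM in middle-aged and 13570 CPM in young recipients, and on day 6 it was 17288 and 30951 CPM.

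Of 10 compared genes of class II antigen presentation in cluster 10, 5 were at least 2-fold higher (1.31% of all genes) and 0 lower, with a median of 0.76 (young 2.79). H2-Aa, a chain of the class II molecule, went from 828 to 2689 CPM in middle-aged and from 292 to 3185 CPM in young recipients, and the log2 ratios differed by -1.75 (-1.87 to -1.63). Cd74, the invariant chain, went from 2953 to 8118 CPM. Class I genes had a median of 0.02 (young 0.74), and 19 proteasome subunits a median of -0.67 (young -0.12) with 0 past the fold.

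Cell division genes were lower in microglia-like cells on day 10. Of 22 compared, 19 were at least 2-fold lower (4.44% of all genes; median -1.45, young -0.48). Top2a, a topoisomerase of dividing cells, went from 202 to 70.5 CPM, the replication licensing gene Mcm5 from 65.1 to 9.58, and Mki67 from 128 to 62.7. Plac8 was also among the genes that the naming rule gave downward, at 648 and 94.6 CPM. Heat shock genes had a median of -0.66 with 4 of 14 at least 2-fold lower, and Hspa1a went from 159 to 51.9 CPM, while young recipients had 1622 and 95.3 CPM. Inflammatory cytokine genes had 5 of 14 members at least 2-fold lower (median -0.52), among them Tnf (656 and 323 CPM) and Il1rn (275 and 62.1 CPM).

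**Figure D3:**
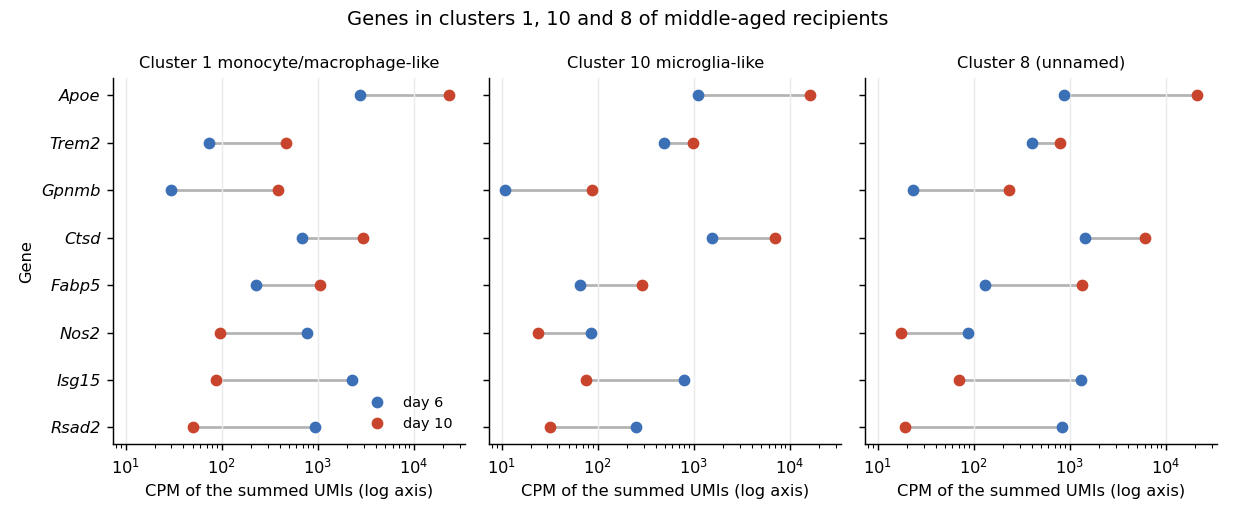
Level of 8 genes (CPM of the summed UMIs, log axis) on day 6 (blue) and day 10 (red) in clusters 1, 10 and 8 of middle-aged recipients, 1 library per day. Apoe, Trem2, Gpnmb, Ctsd and Fabp5 lie higher on day 10 in all 3 clusters (Apoe 2724 and 23486 CPM in cluster 1), while Nos2, Isg15 and Rsad2 lie lower.

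Cluster 8 had the same genes at higher ratios, together with transcripts of monocytes. Apoe went from 872 to 21203 CPM and Lyz2, which microglia express little, from 515 to 12475 CPM. Ms4a7 was at 3 and 275 UMIs, F13a1 at 9 and 257 UMIs (a log2 ratio of 3.89, and 5.04 without cells marked by another lineage), and Apoc2 at 24 and 2087 UMIs. Summed monocyte/macrophage markers were at 1848 and 15200 CPM with 6 of 9 compared at least 2-fold higher (3.14% of all genes), while summed microglia markers were at 4015 and 3248 CPM. Cells with at least 2 UMIs of microglia markers were 65.4% on day 6 and 48.2% on day 10. Whether cluster 8 holds different cells on the days was not tested.

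In cluster 8 cell cycle genes were at least 2-fold lower in 18 of 19 (11.2% of all genes; median -1.53), disease-associated genes at least 2-fold higher in 11 of 16 (3.14% of all genes; median 1.22), and class II genes at least 2-fold higher in 5 of 9 (median 1.01, young 2.47), with H2-Aa at 560 and 2768 CPM. Homeostatic genes had a median of -0.54 beside -0.28 over all genes, with Tmem119 at 248 and 171 CPM. Of 11 inflammatory cytokine genes 9 were at least 2-fold lower (11.2% of all genes), and Il1b went from 2433 to 694 CPM. Nos2 went from 87.6 to 17.6 CPM in middle-aged and from 6.14 to 29.5 CPM in young recipients.

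**Figure D4:**
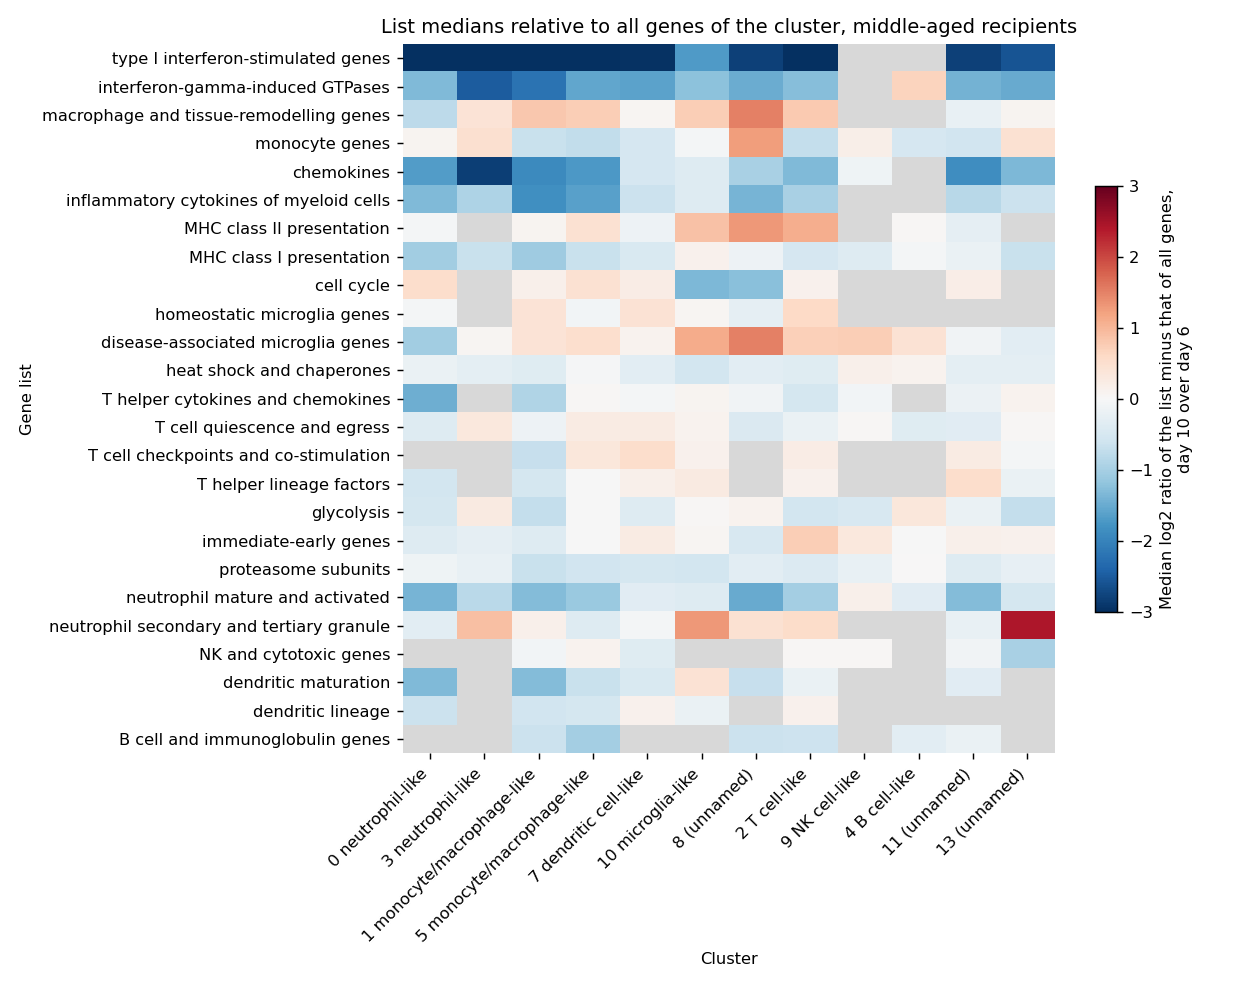
Median log2 ratio (day 10 over day 6) of each gene list minus the median of all genes of that cluster, in 12 clusters of middle-aged recipients. Red is higher and blue lower on day 10, the colour scale ends at 3 in both directions, and grey marks fewer than 5 compared members. The row of interferon-stimulated genes is blue in all 10 clusters shown, and the remodelling row is red in clusters 1, 2, 5, 8 and 10.

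Summed levels of Ifng and Il17f were lower on day 10 in the T cell-like cluster 2. Ifng, the main macrophage-activating cytokine of T cells, went from 1500 to 361 CPM, a log2 ratio of -2.05 (-2.10 to -2.01). Il17a, the defining cytokine of Th17 cells and a leading gene of this cluster, was at 702 and 377 CPM, and its relative Il17f went from 126 to 6.28. Csf2, which encodes GM-CSF and is also a leading gene, was at 211 and 196 CPM. Of 17 genes of the T helper cytokine list 5 were at least 2-fold lower, and 2 were higher by that much, where 2.69% of all genes were lower and 2.28% higher. The list median was -0.57, and -0.05 over all genes.

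In young recipients the same list had a median of 0.83. Ifng was at 441 and 559 CPM there, Il17a at 115 and 300, and Csf2 at 51.5 and 350. The log2 ratios of middle-aged and young recipients differed by -2.39 for Ifng (-2.47 to -2.32), by -2.28 for Il17a (-2.40 to -2.16) and by -2.88 for Csf2 (-3.05 to -2.70). For all 3 genes the middle-aged level was the higher of the 2 ages on day 6, and on day 10 this held for Il17a alone. The chemokine genes Ccl3 and Ccl4 were higher in middle-aged recipients on day 6 and lower on day 10, with Ccl4 at 294 and 185 CPM in middle-aged and at 120 and 365 CPM in young recipients.

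A few cells carried a large part of these transcripts. The cluster held 1137 cells on day 6 and 2463 on day 10. The top 10 cells are thus a larger fraction of it on day 6, and their percentages are not compared between the days. The 10 cells with the most Il17a UMIs held 66.1% of them on day 6 and 18.5% on day 10. For Ifng the values were 41.4% and 22.98%, and for Csf2 48.7% and 19.9%. In young recipients 10 cells held 79.6% of Il17a, 78.1% of Csf2 and 66.5% of Ifng UMIs on day 6. After each cell was thinned to 2000 UMIs (1095 cells on day 6 and 2357 on day 10, with 42 and 106 shallower cells left out), Ifng was found in 20.2% of T cell-like cells on day 6 (17.8 to 22.7) and 18.8% on day 10 (17.2 to 20.4). Il17a was found in 8.49% (6.91 to 10.3) and 10.4% (9.19 to 11.7), and Csf2 in 7.49% and 9.97%. Without thinning the shares were 26.0% and 27.7% for Ifng, 10.99% and 14.3% for Il17a, and 11.7% and 15.8% for Csf2. In the B cell-like cluster, which should lack these genes, 0 of 184 cells held a Csf2 or Il17a UMI on day 6, which allows a share of cells with a UMI of up to 1.63%, and 1 cell held an Ifng UMI. On day 10, 4 of 338 held an Il17a UMI (1.18%), and 2 each held a Csf2 or an Ifng UMI (0.592%). Median depths were 5034 and 5345 UMIs in the T cell-like and 2784 and 2997 UMIs in the B cell-like cluster. The thinned intervals for Ifng overlapped. For Il17a and Csf2 the shares ran against the CPM, so no order of the days is read from them.

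Other cytokine genes of the list had higher levels on day 10. Tnf was at 108 and 188 CPM, Ltb, a lymphotoxin chain, at 565 and 814, and Xcl1, a chemokine for cross-presenting dendritic cells, was at 49 and 958 UMIs, with 61.2% and 73.7% of its UMIs in 10 cells. Tnfsf11, which encodes RANKL and is a leading gene of the cluster, went from 66.9 to 182 CPM. Il2 was at 38.9 and 19.4 CPM.

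**Figure D5:**
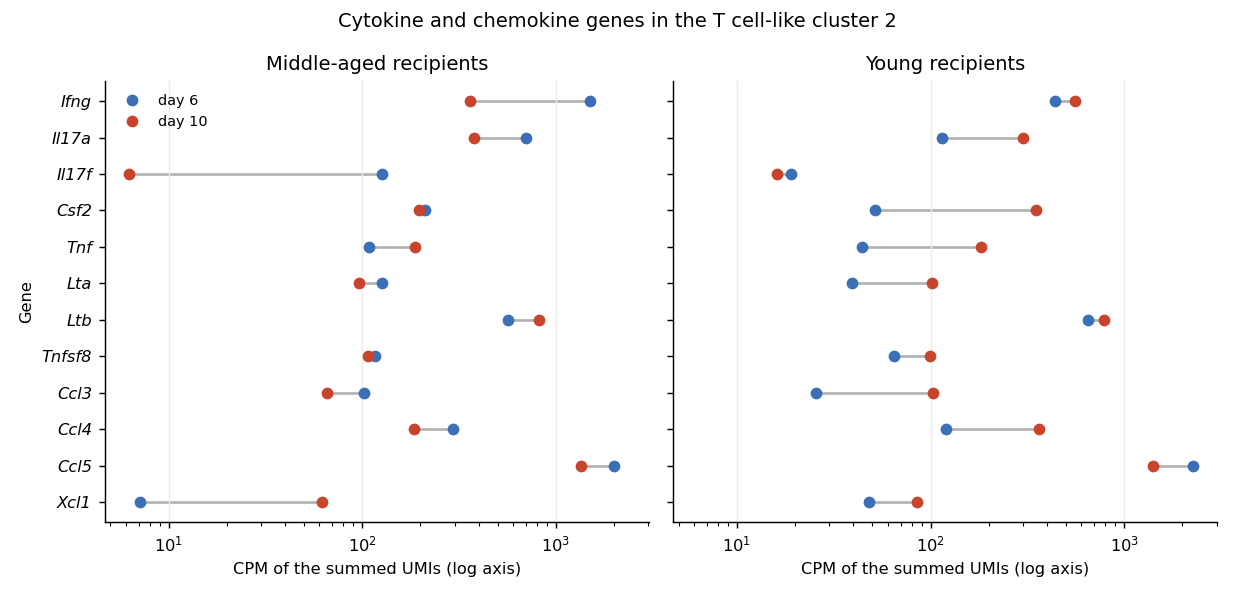
Level of 12 cytokine and chemokine genes (CPM of the summed UMIs, log axis) in the T cell-like cluster on day 6 (blue) and day 10 (red), middle-aged recipients at left and young recipients at right, 1 library per point. In middle-aged recipients Ifng lies at 1500 CPM on day 6 and 361 CPM on day 10, and in young recipients at 441 and 559 CPM.

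Of 14 checkpoint and co-stimulation genes in cluster 2, 3 were at least 2-fold higher and 3 lower, with a median of 0.17, where 2.28% of all genes were higher and 2.69% lower. Lag3, an inhibitory receptor, went from 45.2 to 174 CPM, and Nr4a1, an early target of the antigen receptor, from 157 to 351, while Ctla4, another inhibitory receptor, was at 222 and 343. Nr4a1 is also a member of the immediate-early list below, and it went from 111 to 269 CPM in the NK cell-like cluster. The 3 lower genes encode co-stimulatory receptors of the TNF receptor family. Tnfrsf9 (4-1BB) went from 300 to 115 CPM, Tnfrsf4 (OX40) from 671 to 281 and Tnfrsf18 (GITR) from 450 to 219. In young recipients these 3 were at 103 and 112, 335 and 325, and 315 and 243 CPM. Of 15 lineage factors 4 were at least 2-fold higher and 0 lower (median 0.09). Maf was at 87.6 and 180 CPM, and Bcl6, the follicular helper factor, at 34 and 313 UMIs. Tbx21, the Th1 factor, was at 34.2 and 33.8 CPM.

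Of 17 immediate-early genes in cluster 2, 6 were at least 2-fold higher and 1 lower (median 0.68), where 2.28% of all genes were higher and 2.69% lower. Among the higher genes were Fos (260 and 797 CPM), Fosb (116 and 370) and Dusp1 (129 and 321). These genes also respond to tissue dissociation, and their medians were 0.02 in the B cell-like cluster and 0.30 in the NK cell-like cluster.

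Of 20 glycolysis genes in cluster 2, 4 were at least 2-fold lower, where 2.69% of all genes were, and 0 higher (median -0.61, young -0.05). Hk2, the first enzyme of the pathway, went from 104 to 47.3 CPM, and the glucose transporter gene Slc2a1 from 49.2 to 23.5. Quiescence and egress genes had a median of -0.25 with 0 of 14 past the fold, while their young median was -1.10. Klf2, which keeps T cells quiescent, was at 177 and 138 CPM in middle-aged and at 347 and 125 CPM in young recipients. Cell cycle genes had a median of 0.08, and 28 nuclear-encoded respiratory chain genes one of -0.22.

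The largest ratios upward by the naming rule in T cell-like cells were those of Ier5l, Timp2, Igfbp7, Ramp1 and Lag3, with Igfbp7 at 43.0 and 192 CPM. Ramp1, a subunit of the receptor for the neuropeptide CGRP, went from 43.6 to 188 CPM. Downward they were Ifit3, Isg15, Ifit1, Usp18 and Ifit1bl1. Gzmb, the cytotoxic protease gene, named after its values were seen, went from 417 to 59.7 CPM, and Cd8b1, a marker of CD8+ T cells, from 87.6 to 39.4 CPM.

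In the neutrophil-like cluster 0 the comparison was shifted as a whole. The median log2 ratio over all 6504 genes was 0.68, and 36.1% of genes were at least 2-fold higher. The 22 genes of activated neutrophils took up 98668 CPM on day 6 and 54064 CPM on day 10. Cxcl2, a neutrophil attractant, went from 26994 to 14252 CPM and Ccl4 from 12769 to 3402. Of these genes 7 were at least 2-fold lower, where 5.17% of all genes were, and 0 higher (median -0.73). Acod1, which makes the antimicrobial metabolite itaconate, went from 5015 to 1732 CPM, Il1rn from 3496 to 925, and Cd274, which encodes PD-L1, from 2400 to 850. Il1b was at 11958 and 11355 CPM.

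Nuclear-encoded respiratory chain genes were at least 2-fold higher in 24 of 28 cases in cluster 0, where 36.1% of all genes were. Their median was 1.43, which is 0.75 above the median of all genes. Granule genes had a median of 0.36, below that of all genes and of opposite sign (-0.32) once all ratios were centred on it. Among them Chil3, a chitinase-like protein of granules, went from 861 to 4129 CPM, Mmp9, gelatinase B, from 462 to 1064, and Lyz2 from 306 to 973. The genes with the largest ratios upward were Prtn3 (3.50 and 60.6 CPM), Cenpx, Mrpl42, Banf1 and Ptgs1. Those downward were Ifit3b, Ifi211, Ifit3, Ifit1 and Cxcl3 (1672 and 137 CPM).

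Cluster 3, the other neutrophil-like cluster, had 172 to 258 cells per library. Its granule genes were at least 2-fold higher in 5 of 9 (median 1.04, all genes 0.14), where 10.2% of all genes were. Mmp8, a collagenase of secondary granules, went from 847 to 2152 CPM, Lcn2, an iron-binding lipocalin, from 2434 to 5003, and Chil3 from 144 to 1990. Of 22 genes of activated neutrophils 9 were at least 2-fold lower, where 13.9% of all genes were, with Cxcl2 at 33365 and 14857 CPM and Ccl4 at 8707 and 892. Il1b was at 22524 and 15280 CPM in middle-aged and at 25351 and 6239 CPM in young recipients. Asprv1, Klhl6 and Csta2 were further genes with large ratios upward, and Cish, a feedback inhibitor of cytokine signalling, was at 102 and 5 UMIs.

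Dendritic cell-like cells of cluster 7 kept most of their genes within 2-fold, with 2.09% of 5553 genes at least 2-fold higher and 4.54% lower. Of 17 maturation genes 1 was at least 2-fold lower, near the share of all genes, and 0 were higher. Their median was -0.43, while the young median was 0.65. Cd40, a co-stimulatory receptor, went from 292 to 98.7 CPM, and Cd86 from 358 to 189. Ccr7, which guides dendritic cells to lymph nodes, was at 1204 and 891 CPM in middle-aged and at 351 and 612 CPM in young recipients. Fscn1, which encodes the actin bundler fascin, was at 547 and 490 CPM against 164 and 445 CPM. Both are leading genes of the cluster.

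Cxcl9, an interferon-γ-induced chemokine, went from 2071 to 410 CPM in dendritic cell-like cells. Lineage genes had a median of 0.16 with 1 of 14 past the fold, where 2.09% of all genes were higher and 4.54% lower. It was Clec9a (42.1 and 17.5 CPM), a receptor of cross-presenting dendritic cells. Genes with the largest ratios upward were Mmp12 (4.41 and 68.2 CPM), Ctla4, Ltb, Slc27a3 and Cd3g. Cells with at least 2 UMIs of T cell receptor and CD3 genes were 7.96% of this cluster on day 6 and 15.99% on day 10. Without cells marked by another lineage the log2 ratio of Ctla4 was 0.62 in place of 1.76.

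B cell-like cells of cluster 4 had few genes past the fold, 1.42% of 2041 higher and 0.784% lower. Ighm, the IgM heavy chain, went from 6586 to 2025 CPM, Fcer2a, the low-affinity IgE receptor CD23, from 158 to 51.8, Vpreb3 from 508 to 227 and the inhibitory receptor gene Btla from 186 to 82.3. The Ighm ratio of -1.70 was -0.98 without cells marked by another lineage. Immunoglobulin transcripts of secreting cells are leading genes of this cluster and came from few cells. Jchain was at 3081 and 223 CPM, with a log2 ratio of -3.79 that was -2.05 without cells marked by another lineage. Igha was at 5715 and 842 CPM, with a log2 ratio of -2.76 that was 1.495 without cells marked by another lineage. Ighg2c was at 0 UMIs on day 6 and 1695 UMIs on day 10, where 10 cells held 99.8% of them, at least 298-fold higher by a floor of 3 counts in the day 6 library.

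MHC class II genes of cluster 4 had a median of 0.05 with 1 of 12 past the fold, where 1.42% of all genes were higher and 0.784% lower. Cd74 was at 11906 and 10445 CPM. Ahr, the aryl hydrocarbon receptor, Fkbp5, Sertad2, Serpina3f and Ifi27 had the largest ratios upward, from 17 to 22 UMIs on day 6 to 91 to 113 UMIs on day 10. Cd79b, a chain of the B cell receptor, was at 1424 and 813 CPM.

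NK cell-like cells of cluster 9 (96 and 181 cells) had a median of 0.02 over 18 cytotoxic genes. Of these 1 was at least 2-fold higher and 1 lower, where 0.967% of all genes were higher and 2.07% lower. Prf1, perforin and a leading gene of the cluster, was at 552 and 625 CPM. Gzmb went from 1853 to 1049 CPM in middle-aged and was at 1252 and 1373 CPM in young recipients. Gzmc, another granzyme gene, was at 9 and 162 UMIs, and Xcl1 went from 703 to 282 CPM. Ifi27l2a, an interferon-stimulated gene, went from 687 to 44.1 CPM, and Tnfrsf9 from 248 to 49.8. Nr4a1 went from 111 to 269 CPM.

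Cluster 11 held mainly cells with T cell receptor and cell division transcripts, while 8 of its 10 leading genes were genes of basophils or granulocyte progenitors. Cells with at least 2 UMIs of T cell receptor and CD3 genes were 53 of 71 on day 6 (74.6%) and 177 of 203 on day 10 (87.2%), and cells with at least 2 UMIs of Mki67, Top2a and Birc5 were 81.7% and 88.7%. Cells with basophil proteases were 8 on day 6 and 9 on day 10. Cell cycle genes had a median of 0.09 with 0 of 25 past the fold. Gzmb went from 542 to 90.9 CPM, and Nrgn from 40.04 to 384 CPM. Tnfsf11 was at 28.7 and 109 CPM. Upward, 1.32% of all genes were past the fold.

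Cluster 13 held 60 and 96 cells, of which 58 and 96 carried T cell transcripts and 26 and 32 also carried at least 2 UMIs of neutrophil markers. Cxcl3 went from 1100 to 22.8 CPM and Isg15 from 2354 to 166 CPM. Ltf, the granule protein lactoferrin, was at 9 and 449 UMIs, and Camp, an antimicrobial peptide of granules, at 1 and 1363 UMIs. Ccl2 was at 9 and 213 UMIs in middle-aged recipients. Il17a was at 15 and 210 UMIs. Of all genes 3.48% were at least 2-fold higher.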

How the data were processed

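Single-cell RNA sequencing libraries (10x Genomics) of CD45+ spinal cord cells were deposited as raw UMI counts per gene and cell, aligned by the authors with Cell Ranger 3.1.0 to mm10. The authors kept cells with at least 200 genes, up to 25000 reads, within 5 median absolute deviations of depth, under 10% mitochondrial and under 50% ribosomal reads, and clustered the 4 libraries after integration over 20 dimensions at resolution 0.4. The deposited cluster numbers were used. Doublets were not removed beyond these filters, and an alternative left out cells carrying at least 2 UMIs of other lineages' markers. Young libraries served as a side comparison, and bulk microglia of naive mice were not used here.

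UMIs were summed per cluster and library with Python 3.11.15, numpy 2.4.6, pandas 2.3.3 and scipy 1.17.1. Log2 ratios of CPM carry exact conditional binomial intervals, shares Clopper-Pearson intervals, and differences between ages Wald intervals, all at 95% and for counting error only. The script was tested on simulated data. Named genes were the 5 largest ratios in each direction per cluster among genes with at least 100 UMIs together, and in the higher library at least 50 CPM, a UMI in at least 10% of cells and at least 10% of that gene's highest cluster. Mitochondrial, ribosomal protein, sex-linked and receptor variable genes and the 10 leading genes of the cluster were passed over. Members of the gene lists were named besides, and a few genes are not reported here. Members and lists were chosen with earlier results of these data known. Promoters (250 bases before to 50 after the start) came from RefSeq on GRCm38.p6 by gene symbol.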

Additional observations from a re-analysis of the deposited data

Results flagged for a closer look

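The following differences between day 6 and day 10 ran one way in the middle-aged and the other way in the young libraries, with counting intervals that did not include equality of the days, except for the medians over gene lists, which carry no interval. With 1 library for each age and day, the difference between ages was not tested beyond counting error. Values are log2 ratios of day 10 over day 6 unless given as a fold.

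Among shares, the neutrophil-like clusters together had a fold of 0.586 in middle-aged and 1.31 in young recipients. The share of the neutrophil-like cluster 3 had a log2 ratio of -0.563 against 0.886. For the NK cell-like cluster 9 it was 0.937 against -0.335, and for the microglia-like cluster 10 it was 0.651 against -0.498.

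In monocyte/macrophage-like cells of cluster 1 the pairs of values (middle-aged, then young) were -2.99 and 0.431 for Nos2, -1.68 and 0.649 for Inhba, -0.261 and 1.1 for Arg1, -0.853 and 0.395 for Cfb, the complement factor B gene, and -0.971 and 0.508 for Ccl5. Nos2 also had ratios of opposite sign in 3 further clusters, at -1.82 and 2.83 in cluster 5, at -2.31 and 2.27 in cluster 8, and at -1.82 and 2.73 in cluster 10. The young value of cluster 8 came from few UMIs (interval 0.848 to 4.18). Nos2 is a leading gene of cluster 1, and whether its transcripts in the other clusters came from their own cells was not tested. In cluster 10 the 10 cells with the most Nos2 held 79.8% of its UMIs on day 6 and 91.0% on day 10 in middle-aged recipients, and the middle-aged value was -2.70 without cells marked by another lineage. In cluster 5 such marked cells were 62.1% on day 6 and 74.1% on day 10. Without them the middle-aged value was 0.45, no longer opposite in sign to the young value over all cells of the cluster. A young value without marked cells is not given, so the ages are not compared there.

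In the T cell-like cluster 2 the pairs were -2.05 and 0.341 for Ifng, -0.895 and 1.38 for Il17a, -0.111 and 2.76 for Csf2, -0.39 and 1.37 for Lta, -0.636 and 2.01 for Ccl3, and -0.663 and 1.61 for Ccl4. For Il17a and Csf2 the share of middle-aged cells with a UMI ran against these values, so no order of the days is read from them, and 10 cells held 79.6% of Il17a and 78.1% of Csf2 UMIs of the young day 6 library. The median over the T helper cytokine list was -0.572 and 0.827. In the dendritic cell-like cluster 7 the median over maturation genes was -0.434 and 0.645, with Ccr7 at -0.434 and 0.8, Fscn1 at -0.157 and 1.44, Ccl22 at -0.794 and 0.748, Ccl17 at -0.461 and 0.389, and Cd200 at -0.764 and 0.524.

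In the microglia-like cluster 10 the pairs were 0.954 and -1.92 for Lpl and 0.258 and -0.786 for Cx3cr1. Gzmb in the NK cell-like cluster 9 was at -0.82 and 0.133. Ccl2 in cluster 13 was at 3.72 and -1.03, and 10 cells held 88.3% of its middle-aged day 10 UMIs.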

How the results depend on the processing

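The 1 library per day limits every value, and no alternative bears on differences between pools. No paired analysis was possible because each day has 1 library at each age. With a minimum of 1000 UMIs per cell all 12 share ratios, 72 list medians and 275 gene values stayed within their limits. When mitochondrial and ribosomal protein genes were left out of the total, all 72 list medians did, while 71 of 275 gene values moved further. Gene values moved for 71 of 275 without suspected doublets (2 more changed sign), for 93 with ratios centred on the median of all genes and for 103 as a mean over cells. List medians moved for 9, 29 and 10 of 72, and 1 more changed sign under each of the first pair. The cause of the shifts below was not tested unless the construction of the alternative gives it.

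Log2 share ratios among cells outside the neutrophil-like clusters were -0.592 for cluster 1, 0.763 for 2, 0.526 for 4, -1.25 for 5, -0.209 for 7, 0.740 for 8, 0.563 for 9 and 0.277 for 10. Without suspected doublets they were -0.565 for cluster 1 and -1.36 for 5.

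A minimum of 20 UMIs admitted more genes, and genes at least 2-fold higher and lower were then 4234 higher in cluster 0, 1970 higher in 1, 579 and 386 in 2, 812 and 351 in 3, 307 and 164 in 4, 1607 higher in 5, 703 and 427 in 7, 360 and 1054 in 8, 344 and 202 in 9, 321 and 671 in 10, 324 and 537 in 11, and 465 and 349 in 13. Against the 100 UMI minimum, 2347 were higher in cluster 0 and 198 in cluster 2. At 1.5-fold they were 3522 and 694 in cluster 0, 2635 and 1135 in 1, 602 and 697 in 2, 365 and 294 in 3, 114 and 88 in 4, 1724 and 789 in 5, 549 and 581 in 7, 223 and 977 in 8, 68 and 91 in 9, 326 and 882 in 10, 236 and 478 in 11, and 157 and 277 in 13. When ratios were centred on the median of all genes, they were 946 and 1003 in cluster 0, 765 higher in 1, 262 and 593 in 5, 182 and 257 in 8, and 130 higher in 10.

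The median of interferon-stimulated genes was -3.20 in cluster 0, -3.48 in 1, -3.28 in 5 and -2.79 in 8 with that centring. It was -2.70 in cluster 7, -2.54 in 8 and -3.39 in 9 without suspected doublets, and -2.30 in cluster 8, -2.67 in 9 and -3.16 in 11 as a mean over cells. Values changed sign for granule genes in cluster 0 (-0.32 with centring) and, without suspected doublets, for Igha in cluster 4 (1.495), monocyte genes in cluster 5 (0.0337) and Nos2 in cluster 5 (0.45).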
